A study of Mus musculus with 6 samples.

Results

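The genes described here encode proteins that neutrophils make late in their maturation and were chosen by symbol, with earlier results of these data known. They are Ltf, Camp, Ngp, Lcn2, S100a8, S100a9, Pglyrp1, Hp, Fpr1 and Mmp8, 10 of the 24015 genes listed in the counts. Expression had been measured by RNA sequencing of total RNA in 6 mouse libraries of sorted leukaemia stem and progenitor cells (LSPC). The cells were taken once acute myeloid leukaemia had fully developed in mice, after a start with the fusion oncogene MLL-AF9 in lineage-negative, cKit-positive bone marrow progenitors. Those progenitors carried, in both groups, a transgene for the kinase NIK at the Rosa locus behind a floxed stop (Rosa-loxp-STOP-loxp-NIK) and the tamoxifen-activated recombinase of Rosa-CreERT2, a combination the study calls NIKERT2. In the untreated group (3 libraries) no tamoxifen was given, and in the tamoxifen group (3 libraries, labelled LSPCT) the mice received it, which removes the stop. The dose, the time after tamoxifen, a vehicle, the age of the mice, the sort gates and the promoter that drives NIK once the stop is removed are not stated in the labels used here. As only the tamoxifen group received the drug and had active Cre, the effects of tamoxifen, Cre and NIK cannot be told apart.

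Neutrophils fill their granules in waves. Primary granules are loaded first, in promyelocytes, with myeloperoxidase and serine proteases. Secondary (specific) granules follow in myelocytes and metamyelocytes, with lactoferrin, cathelicidin and lipocalin 2, and tertiary (gelatinase) granules come later still. Much of the late set depends on C/EBP-epsilon and is usually low in leukaemic progenitors, which are held at an earlier stage. S100a8 and S100a9 encode the subunits of calprotectin, which is cytosolic rather than granular but accumulates over the same stages.

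Total counts were between 19999071 and 26773176 per library, at which a gene without a count could still have had up to 3, or 0.111 to 0.150 CPM, by counting error alone (CPM are counts scaled to a common library size with TMM factors). Map3k14, the NIK gene, stood at 24.2 to 28.8 CPM in the untreated and at 129.9 to 190.6 CPM in the tamoxifen libraries. All 8 stem and progenitor markers, among them Kit, Cd34 and Myb, had counts in every library, with a summed level of 1590 to 1651 CPM untreated and 1450 to 1887 CPM with tamoxifen. Whether each replicate was its own mouse is not labelled; p-values therefore reflect the spread among these 6 libraries, which may be technical.

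All 10 genes had enough counts to be tested. Pglyrp1 rose with tamoxifen, Hp fell, and the other 8 did not pass (edgeR quasi-likelihood test, adjusted p under 0.05 over 12729 genes). The 2 of 10 that passed compare with 17.2% of all tested genes. In each direction it was 1 of 10, against 8.96% of tested genes that rose and 8.24% that fell. For Pglyrp1 and Hp the groups did not overlap, again 2 of 10, where the background was 37.7% of tested genes (18.1% with tamoxifen higher and 19.6% with it lower). The share of members called was thus near that of genes in general. The median fitted log2 fold change over the 10 genes was -0.84, beside -0.0025 over all tested genes. Its sign was not stable. Without untreated replicate 3 the median was 1.59 and 9 of 10 genes were above 0, against 3 of 10 with all 6 libraries. With all 6 libraries kept, the median was also above 0 in limma voom (1.35, 8 of 10 genes). The same held with the replicate number as a block (0.30, 6 of 10 genes). Of all 12729 tested genes, 6317 were above 0 in the main fit.

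**Figure D1:**
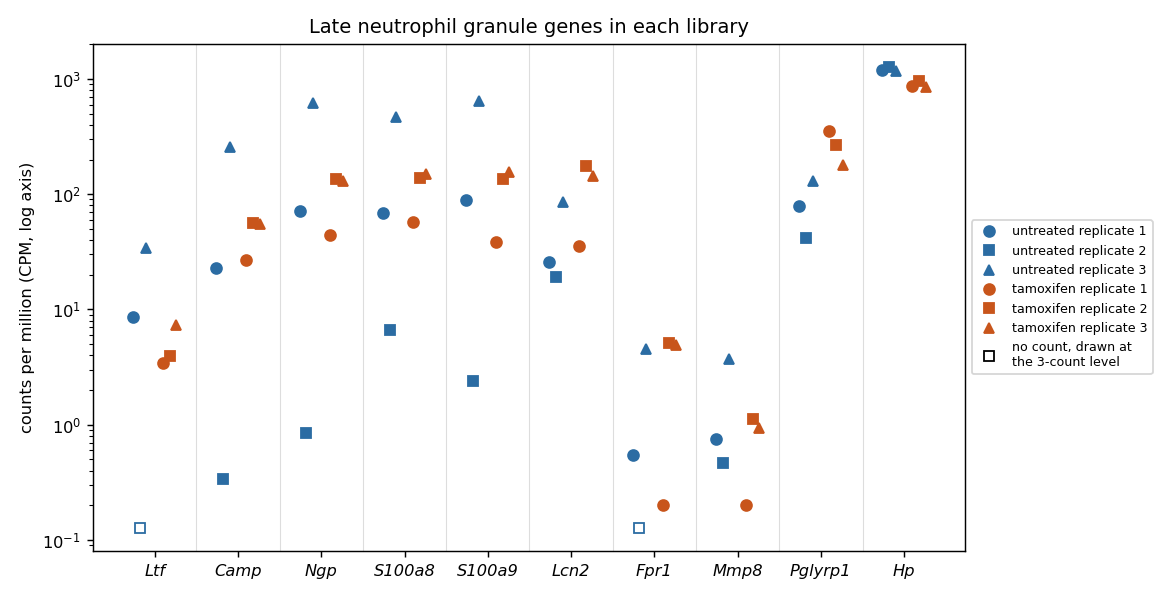
Level of each of the 10 genes in each library, in CPM on a log axis; blue marks are untreated and orange marks tamoxifen libraries, the shape gives the replicate, and open marks are libraries with no count, drawn at the level of 3 counts. Untreated replicates 2 and 3 are far apart for Ltf, Camp, Ngp, S100a8 and S100a9, whereas Hp lies between 855 and 1270.2 CPM in all 6 libraries.

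The secondary granule genes Ltf, Camp and Ngp differed more between untreated libraries than between the groups. Ngp, which encodes neutrophilic granule protein, a cystatin-like relative of the cathelicidins, stood at 70.9, 0.848 and 620.3 CPM in untreated replicates 1 to 3 and at 44.7, 136 and 131 CPM in tamoxifen replicates 1 to 3. The tamoxifen libraries all lay inside the untreated range. Camp, the gene of the antimicrobial peptide cathelicidin, was at 22.7, 0.339 and 257 CPM untreated and at 26.9, 56.1 and 54.8 CPM with tamoxifen. Ltf, which encodes the iron-binding protein lactoferrin, was at 8.55, 0 and 34.1 CPM untreated and at 3.45, 3.95 and 7.30 CPM with tamoxifen. For each of these genes untreated replicate 3 was the highest and untreated replicate 2 the lowest of the 6 libraries. Between these libraries Ngp differed 732-fold (95% exact interval 474 to 1198) and Camp 758-fold (385 to 1757), on 20 and 8 counts in untreated replicate 2. Ltf had no count there, and the 95% exact interval of its difference from replicate 3 began at 217.6-fold. Against a floor of 3 counts the difference was 268-fold. These intervals and floors cover counting error only.

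No group difference passed for these genes. The fitted log2 fold change was -1.15 for Ngp (standard error, SE, 1.38, 95% interval -4.33 to 2.03, edgeR adjusted p = 0.623). It was -1.03 for Camp (SE 1.33, interval -4.08 to 2.02, edgeR adjusted p = 0.647) and -1.54 for Ltf (SE 1.24, interval -4.40 to 1.32, edgeR adjusted p = 0.447). The intervals are wide enough to hold a several-fold change in either direction, so the data do not show that the levels were alike. Without untreated replicate 3 the log2 fold changes turned positive, to 1.55 for Ngp, 2.02 for Camp and 0.22 for Ltf (edgeR adjusted p 0.265 to 0.932). In bulk libraries a smaller number of cells that express a gene cannot be told apart from less RNA per cell.

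The calprotectin genes followed the same libraries. S100a9 stood at 88.2, 2.37 and 643 CPM without tamoxifen and at 38.4, 134 and 155 CPM with it. S100a8 was at 68.8, 6.65 and 468 CPM untreated and at 57.2, 139 and 149.7 CPM with tamoxifen. Here too every tamoxifen value lay between the lowest and highest untreated values. From untreated replicate 2 to replicate 3 the rise was 271-fold for S100a9 (interval 208 to 359) and 70.4-fold for S100a8 (60.1 to 82.9). Neither passed between groups (S100a9 log2 -1.16, SE 1.31, interval -4.17 to 1.85, edgeR adjusted p = 0.597; S100a8 log2 -0.65, SE 1.10, interval -3.18 to 1.87, edgeR adjusted p = 0.731), and without untreated replicate 3 both were above 0, at 1.28 and 1.63. S100a8 and S100a9 are direct neighbours on chromosome 3 in GENCODE, with no protein-coding gene between them (0), while Camp, Ngp and Ltf lie on chromosome 9 with 8 protein-coding genes between the first pair and 20 between Ngp and Ltf.

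Although their levels moved over orders of magnitude, the counts of some members kept a narrow ratio within each library. Ngp gave 3.13, 2.50 and 2.41 counts per count of Camp in the untreated and 1.66, 2.42 and 2.39 in the tamoxifen libraries. S100a9 gave 1.28, 0.357 and 1.37 counts per count of S100a8 untreated and 0.671, 0.963 and 1.04 with tamoxifen, so that the ratio was lowest where both were rarest. Lcn2, in contrast, gave 0.138 counts per count of Ngp in untreated replicate 3 and 22.6 in untreated replicate 2, and Pglyrp1 gave 0.210 and 48.8. Over the 6 libraries, as centred log2 CPM, Camp and Ngp were the closest pair of members (root mean square difference 0.27), followed by Ngp and S100a9 (0.52). These ratios describe counts, which also depend on transcript length and on how reads were assigned.

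**Figure D2:**
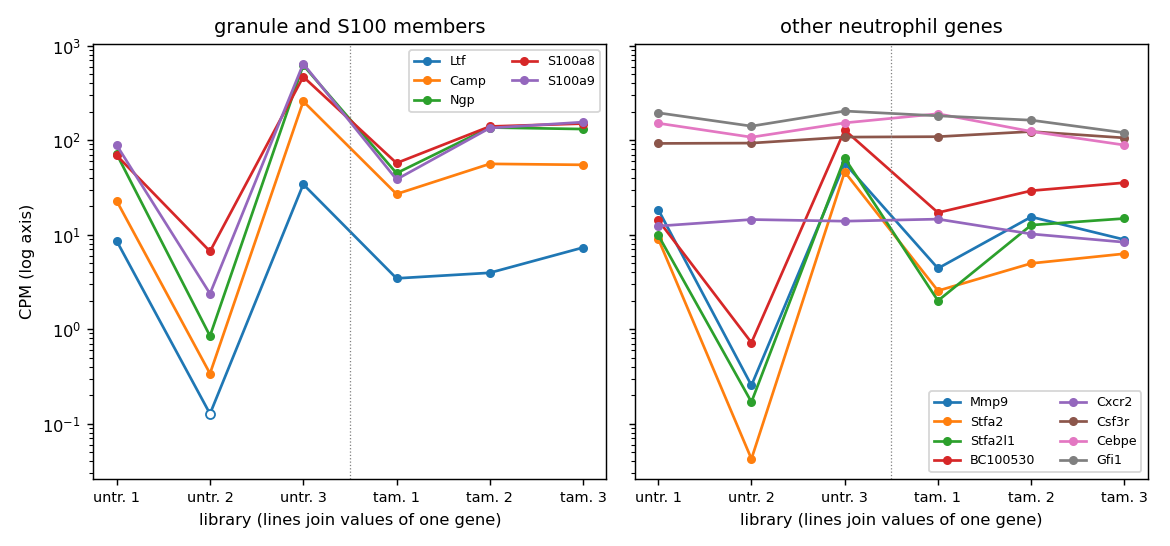
CPM (log axis) of 5 members (left) and of 8 other neutrophil genes (right) in the 6 libraries; lines join the values of a gene and imply no order, and the open mark is Ltf with no count. The members, Mmp9 and the Stfa-family genes dip in untreated replicate 2 and peak in untreated replicate 3, while the receptor genes Cxcr2 and Csf3r and the regulators Cebpe and Gfi1 vary over a much narrower range.

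Set against the whole transcriptome, these genes were among the least even in the untreated libraries. The standard deviation (SD) of log2 CPM over the 3 untreated libraries was 4.77 for Ngp, 4.66 for Camp, 4.49 for Ltf, 4.07 for S100a9 and 3.06 for S100a8, against a median of 0.124 over tested genes. They ranked 1, 3, 4, 7 and 23 of 12729. In the tamoxifen libraries the SD of the same genes was 0.57 to 1.11, against a median of 0.195, with ranks from 374 (S100a9) to 1585 (Ltf). Of the other members, Fpr1 was at 2.39 (rank 11), Lcn2 at 1.25 (242) and Mmp8 at 1.13 (361) there. Pglyrp1 was at 0.49 (1976) and Hp at 0.088 (10748). Of the 12729 tested genes, 10 were members and 32 were on a list of 36 other late neutrophil genes. Members and list were chosen with earlier results of these data known, so the counts that follow are only a description. Among the 20 genes with the widest untreated spread, 4 were members and 7 were on that list. Those 7 were Stfa2, Stfa2l1, Mmp9, BC100530, Stfa1, Itgb2l and Fpr2 (named after their values were seen). The rest were on neither list and included Ace, Cd300e, Emr4 and Clec4a1. Ace ranked 2, at 4.77, 0.0848 and 115 CPM in untreated replicates 1 to 3. All 20 were lowest in replicate 2 and highest in replicate 3 among the untreated libraries. Mmp9, the gelatinase of tertiary granules, stood at 18.4, 0.254 and 56.9 CPM untreated and at 4.40, 15.4 and 8.85 CPM with tamoxifen. The stefin genes Stfa1, Stfa2, Stfa2l1 and BC100530 are near-identical copies among which counting may have divided reads, so their single values are uncertain.

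**Figure D3:**
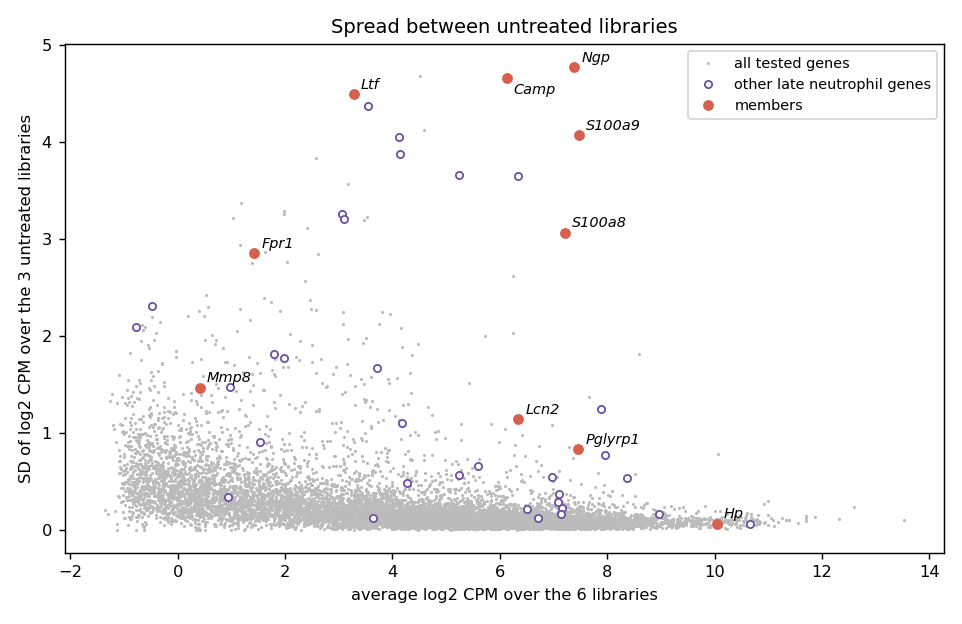
SD of log2 CPM over the 3 untreated libraries against the average log2 CPM of each tested gene; grey dots are all tested genes, red dots the members and open purple circles other late neutrophil genes. Ngp has the largest SD of all tested genes (4.77), and Hp lies below the median (0.063 against 0.124).

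Of 10 markers of mature neutrophils, 9 were listed, and 7 of these 9 were also lowest in untreated replicate 2 and highest in replicate 3 among the untreated libraries. They were Mmp9, Retnlg, Il1r2, Il1b, Cxcr4, G0s2 and Mmp25, with very different ranges. The marker list is not independent of the list of other late neutrophil genes. Mmp9, Retnlg, Il1r2, Mmp25, Cxcr2 and Csf3r are on both. Cxcr4 (287, 279 and 344 CPM) and G0s2 (6.56, 5.85 and 11.6 CPM) were close in untreated replicates 1 and 2. The share of all tested genes with this order was not determined, so the count only describes these markers. Mmp25, a membrane-bound metalloproteinase gene, stood at 1.69, 0.466 and 6.76 CPM untreated and at 2.35, 3.71 and 5.09 CPM with tamoxifen. Retnlg, a gene of mature neutrophils, had no count in untreated replicate 2 and at most 1.60 CPM elsewhere. The other 2 did not follow that order: the chemokine receptor gene Cxcr2 was at 12.3, 14.5 and 13.9 CPM untreated and at 14.6, 10.2 and 8.32 CPM with tamoxifen, and the G-CSF receptor gene Csf3r lay between 92.3 and 123 CPM in all libraries. The summed level of the 9 was 422, 394 and 547 CPM untreated and 371, 428 and 374 CPM with tamoxifen, most of it Cxcr4, which other blood cells also express. Without Cxcr4 the sum was 135, 115 and 203 CPM untreated and 142, 165 and 139 CPM with tamoxifen. None of these 9 markers passed between the groups in edgeR (1 had an unadjusted p under 0.05, and DESeq2 called 1). Cebpe, the gene of the regulator of late granules, was at 151, 107 and 152 CPM untreated and at 189.97, 124 and 88.6 CPM with tamoxifen, a narrower range than that of the members Ngp and Camp. Monocyte markers did not move as a set. Fn1 was at 275 CPM in untreated replicate 3 against 22.1 and 8.14 CPM in replicates 1 and 2. Csf1r, Cx3cr1 and Ccr2 were also highest in untreated replicate 3. In contrast, Ly6c2 (459, 854 and 410 CPM), F13a1 (412, 540 and 419 CPM) and Mpeg1 (276, 454 and 372 CPM) were highest in untreated replicate 2. Ms4a6c was about level in untreated replicates 2 and 3. The summed level of the 8 monocyte markers was 1473, 2194 and 1923 CPM untreated and 1389 to 2153 CPM with tamoxifen. Whether admixed mature cells contributed to the spread was not tested.

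The stretches before the transcription start of Ngp, Camp, Ltf, S100a9 and S100a8 are shown because these are the 5 genes described above that lay far apart in untreated replicates 2 and 3. They are from RefSeq on GRCm38.p6, whereas the counts were made on mm9, and were matched by symbol, as 9 of the 10 members could be. The searched window ran from 250 bases before to 50 after the RefSeq start; each printed stretch ends before the first start in RefSeq or GENCODE and reads 5′ to 3′. Capitals mark the letters TTNCNNAA, a form of the C/EBP motif, on either strand.
Ngp: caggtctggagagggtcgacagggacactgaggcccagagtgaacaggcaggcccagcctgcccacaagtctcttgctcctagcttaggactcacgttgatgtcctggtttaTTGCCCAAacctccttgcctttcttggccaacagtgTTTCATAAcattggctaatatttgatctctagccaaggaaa
Camp: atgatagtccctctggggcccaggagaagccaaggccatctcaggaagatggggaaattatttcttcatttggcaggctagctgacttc
Ltf: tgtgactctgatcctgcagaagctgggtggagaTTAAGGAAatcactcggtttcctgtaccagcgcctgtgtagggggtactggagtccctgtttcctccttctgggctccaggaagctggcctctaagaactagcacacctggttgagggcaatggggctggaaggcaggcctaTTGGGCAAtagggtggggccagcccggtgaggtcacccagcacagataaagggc
S100a9: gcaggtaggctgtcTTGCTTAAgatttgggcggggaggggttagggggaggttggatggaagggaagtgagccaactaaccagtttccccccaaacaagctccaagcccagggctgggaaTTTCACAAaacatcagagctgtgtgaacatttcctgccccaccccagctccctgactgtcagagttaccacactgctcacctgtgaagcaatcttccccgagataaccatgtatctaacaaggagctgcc
S100a8: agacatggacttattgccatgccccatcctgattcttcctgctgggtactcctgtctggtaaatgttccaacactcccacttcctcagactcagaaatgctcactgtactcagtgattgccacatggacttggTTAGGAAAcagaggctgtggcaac
The Ngp stretch is chr9:110419558-110419746, plus strand, the Camp stretch chr9:109849618-109849706, minus strand, the Ltf stretch chr9:111019042-111019270, plus strand, the S100a9 stretch chr3:90695722-90695971, minus strand and the S100a8 stretch chr3:90668821-90668977, plus strand. Ngp, Ltf and S100a9 hold 2 matches each in the part shown, S100a8 holds 1 and Camp 0, and Ngp has a further match starting 11 bases before the RefSeq start. Of the 9 members with a window, 7 held at least 1 match; Camp and Pglyrp1 held none. The letters are common: 40.7% of 32851 windows of the same length hold them. A match is a description of letters only.

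Lcn2, Fpr1 and Mmp8 were also highest in replicate 3 among the untreated libraries, but for Lcn2 and Fpr1 some tamoxifen libraries passed that level. Lcn2 encodes lipocalin 2, which withholds iron from bacteria by binding their siderophores. It stood at 26.0, 19.1 and 85.5 CPM untreated and at 35.6, 175.6 and 143 CPM with tamoxifen. Tamoxifen replicates 2 and 3 were above every untreated library, and tamoxifen replicate 1 was inside their range. The log2 fold change of 1.43 did not pass (SE 0.67, interval -0.11 to 2.98, edgeR adjusted p = 0.187). It passed without tamoxifen replicate 1 (log2 1.87, edgeR adjusted p = 0.0334) and without untreated replicate 3 (log2 2.39, edgeR adjusted p = 0.0421), and in none of the other 13 alternatives run (edgeR, DESeq2 or limma adjusted p up to 0.657). Both calls of Lcn2 thus came from leaving out 1 library.

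Fpr1, the receptor for bacterial formyl peptides, was sparse, with 11, 0 and 123 counts in the untreated and 4, 111 and 111 counts in the tamoxifen libraries. In CPM tamoxifen replicates 2 and 3, at 5.15 and 4.91, were close to untreated replicate 3 at 4.57. Its log2 fold change was 0.98 (SE 1.34, interval -2.09 to 4.06, edgeR adjusted p = 0.665). Fpr2, a second formyl peptide receptor gene, had the same libraries high and low, at 0.795, 0 and 7.46 CPM untreated and at 2.30, 20.3 and 19.9 CPM with tamoxifen (log2 2.34, edgeR adjusted p = 0.248). Without untreated replicate 3 the difference in Fpr2 passed, at a log2 fold change of 5.22 (edgeR adjusted p = 0.0389). Mmp8, the neutrophil collagenase, had 15, 11 and 100 counts untreated and 4, 24 and 21 with tamoxifen. Its log2 fold change of -1.14 did not pass (SE 0.86, edgeR adjusted p = 0.413) and was 0.32 without untreated replicate 3. Lcn2, Fpr1 and Mmp8 were each lower in tamoxifen replicate 1 than in tamoxifen replicates 2 and 3, by 4.93-fold, 25.8-fold and 5.57-fold from highest to lowest. Within the tamoxifen group Ltf, Camp, Ngp, S100a8 and S100a9 were lowest in replicate 1 as well, whereas Pglyrp1 and Hp were not.

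Pglyrp1 was the member that rose. It encodes peptidoglycan recognition protein 1, a bactericidal protein of neutrophil granules that binds bacterial cell walls. Untreated libraries held 79.8, 41.3 and 130.1 CPM of it and tamoxifen libraries 357, 266 and 180.4 CPM. Every tamoxifen library was above every untreated one, and the mean rose 3.20-fold, from 83.7 ± 44.5 to 268 ± 88.2 CPM (SD, n = 3; log2 1.68, SE 0.40, interval 0.76 to 2.59, edgeR adjusted p = 0.0240). Within the untreated group it had the order of Ngp, lowest in replicate 2 and highest in replicate 3, over a 3.15-fold range. Within the tamoxifen group the order was the reverse of that for S100a9: tamoxifen replicate 1, which had the least S100a9, had the most Pglyrp1. The call was lost without untreated replicate 1 (edgeR adjusted p = 0.0955), without tamoxifen replicate 2 (edgeR adjusted p = 0.0615) and when a change of more than 1.5-fold was required (edgeR adjusted p = 0.0995), with log2 fold changes of 1.65 to 1.68.

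Tamoxifen replicate 1 also held the most RNA of macrophage markers. The summed level of the 10 markers was 178, 160.4 and 184 CPM in the untreated and 1489.7, 641 and 688 CPM in the tamoxifen libraries. Most of it in each library was Vcam1 (930, 456 and 457 CPM with tamoxifen) and Emr1 (206, 142 and 147 CPM). In all, 8 of the 10 rose and none (0) fell, against 8.96% and 8.24% of all tested genes. Only 4 rose without untreated replicate 1 or without untreated replicate 2, and 3 with limma voom. In untreated replicate 2, 3 markers were at 0. The complement genes C1qa, C1qb and C1qc together stood at 0.848 to 7.90 CPM untreated and at 223, 23.3 and 42.4 CPM with tamoxifen. Without tamoxifen replicate 1 the log2 fold change of Pglyrp1 was 1.42 (edgeR adjusted p = 0.0296). The libraries left in that group, tamoxifen replicates 2 and 3, still held 641 and 688 CPM of the macrophage markers. Whether macrophages contributed to the rise of Pglyrp1 was not tested.

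The stretch before the start of Pglyrp1 is shown because this is the member called higher in the tamoxifen group, and NIK is known as an activator of noncanonical NF-kB. It is chr7:18884440-18884679, plus strand (RefSeq, GRCm38.p6), printed 5′ to 3′ up to the first annotated start, with a match to the NF-kB consensus in capitals.
Pglyrp1: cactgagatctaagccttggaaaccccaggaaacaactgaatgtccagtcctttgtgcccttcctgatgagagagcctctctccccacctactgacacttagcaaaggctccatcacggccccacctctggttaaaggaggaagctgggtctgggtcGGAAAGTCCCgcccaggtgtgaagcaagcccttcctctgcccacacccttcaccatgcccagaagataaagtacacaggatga
The match lies on the strand opposite to the one printed and begins 93 bases before the RefSeq start. Among the 9 members with a window, Camp held the other match, downstream of its start. Of all windows of this length, 8.46% hold such a match. No binding was measured here, and Camp, with a match, did not pass.

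The tested genes most like Pglyrp1 over the 6 libraries, by root mean square difference of centred log2 CPM, were Myo1e (0.23), Siglece (0.27) and Slc24a3 (0.30). Myo1e and Slc24a3 were sparse, with 54 and 63 counts over the untreated libraries, and did not pass (edgeR adjusted p = 0.0609 and 0.0510). Siglece, a sialic acid receptor gene of myeloid cells, was at 23.8, 12.0 and 27.7 CPM untreated and at 70.2, 74.5 and 59.9 CPM with tamoxifen (log2 1.69, SE 0.27, edgeR adjusted p = 0.00453).

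Hp was the most even of the 10 genes, and it fell with tamoxifen. It encodes haptoglobin, the plasma protein that binds free haemoglobin, which neutrophils also store in their granules. Untreated libraries held 1205, 1270.2 and 1165 CPM of Hp, and tamoxifen libraries 863, 954 and 855 CPM. No tamoxifen library reached the lowest untreated one, and the mean of 1213 ± 53.0 CPM fell to 891 ± 55.2 (SD, n = 3; log2 fold change -0.45, SE 0.079, interval -0.63 to -0.26, edgeR adjusted p = 0.00760). The spread within a group was small, with an SD of 0.063 on the log2 scale untreated and 0.088 with tamoxifen. Untreated replicates 2 and 3, which differed 732-fold for Ngp, differed by a factor of 0.917 for Hp. The fall passed in 14 of 15 alternatives and was lost only when a change of more than 1.5-fold was required. Closest to Hp over the 6 libraries were Ccdc6 (root mean square difference 0.021), Rnf144a (0.029) and Sort1, the sortilin gene (0.039), which fell by 0.44, 0.46 and 0.49 on the log2 scale (edgeR adjusted p 0.00451 to 0.0219). Rnf144a missed the threshold without any of the untreated replicates or tamoxifen replicate 3 (0.0664 to 0.0880).

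Levels can be ranked between genes only per length. Divided by the exon length in GENCODE (1345 bases), the level of Hp was 902 ± 39.4 CPM per kb untreated and 662 ± 41.1 with tamoxifen (SD, n = 3), the highest of the 10 in both groups. In the tamoxifen group Pglyrp1 followed at 386 ± 127 CPM per kb, then S100a8 at 238 ± 104, S100a9 at 209 ± 119, Lcn2 at 129 ± 80.0, Ngp at 85.0 ± 42.0 and Camp at 60.6 ± 21.8 CPM per kb. From S100a8 to Camp, neighbours in that order differed by less than the larger of their SDs. Fpr1 (2.58 ± 2.11), Ltf (1.75 ± 0.75) and Mmp8 (0.308 ± 0.199) were the lowest. In the untreated group the SD exceeded the mean for Ltf, Camp, Ngp, S100a8, S100a9, Fpr1 and Mmp8, so that an order by mean would rest on replicate 3; by the median library it ran from Hp (896 CPM per kb) over S100a9 (169), S100a8 (142) and Pglyrp1 (115) to Mmp8 (0.307). Together the 10 genes made up 0.155%, 0.134% and 0.343% of all counts in the untreated and 0.143%, 0.187% and 0.169% in the tamoxifen libraries. Without Hp their summed level was 366, 71.1 and 2246 CPM untreated and 563, 918 and 827 CPM with tamoxifen.

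**Figure D4:**
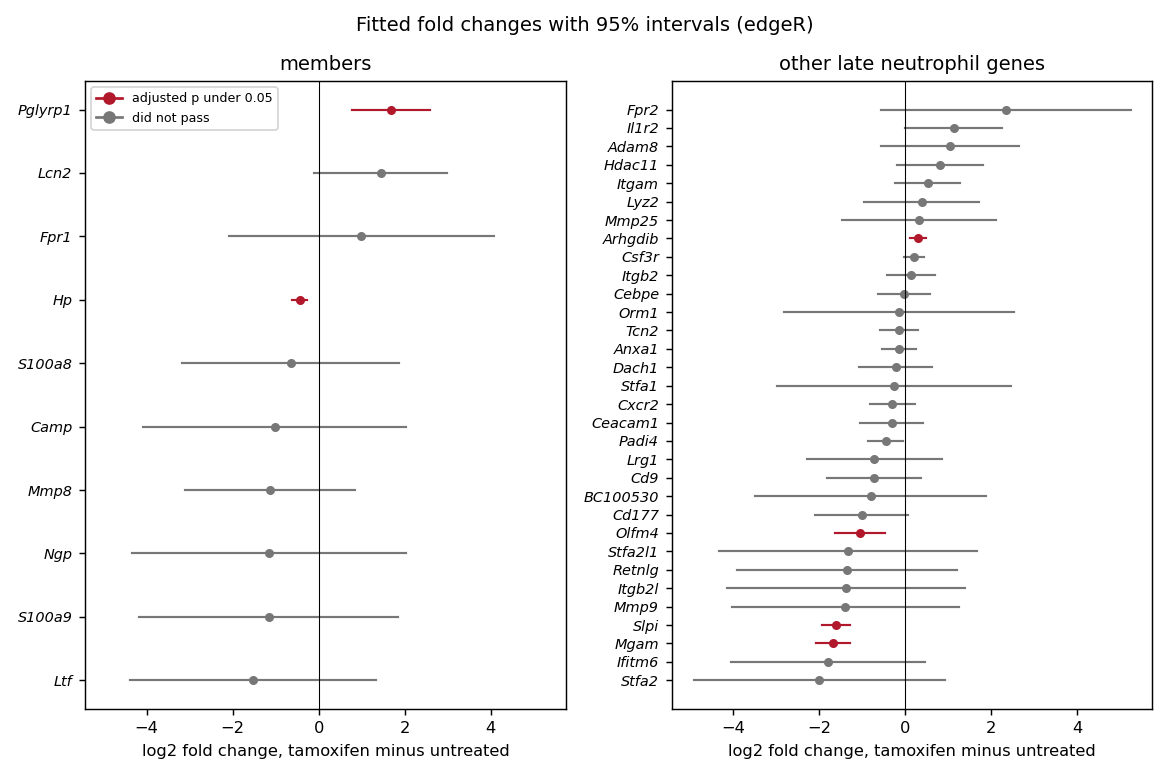
Fitted log2 fold change (tamoxifen minus untreated) with its 95% interval for the 10 members (left) and 32 other late neutrophil genes (right); red marks passed at an adjusted p under 0.05. Pglyrp1 (1.68) and Hp (-0.45) passed among the members, and the intervals of Ltf, Camp, Ngp, S100a8 and S100a9 each span more than 5 log2 units.

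Other genes of the late neutrophil programme were taken from a list. Of 36 on the list, 32 were tested, 1 rose and 3 fell, against 17.2% of all tested genes called, with a median log2 fold change of -0.28. On the log2 scale Slpi, the secretory leukocyte protease inhibitor gene, fell by 1.61 (SE 0.14, edgeR adjusted p = 0.000243), the maltase-glucoamylase gene Mgam by 1.69 (SE 0.17, edgeR adjusted p = 0.000619) and the granule gene Olfm4 by 1.05 (SE 0.26, edgeR adjusted p = 0.0264). Arhgdib rose by 0.30 (SE 0.082, edgeR adjusted p = 0.0391). Olfm4 missed the threshold without untreated replicate 1 or 3 or tamoxifen replicate 2 or 3 (edgeR adjusted p 0.0532 to 0.0971), and Arhgdib without any of the untreated replicates or tamoxifen replicate 2 (0.0820 to 0.162); 2 of the 32 passed without untreated replicate 1. Signs depended on 1 library here too: 10 of the 32 were above 0 with all libraries and 23 of 32 without untreated replicate 3.

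Of 14 tested genes of the earlier, primary granules, 2 rose and 6 fell (median log2 -0.70), against 8.96% and 8.24% of all tested genes. Mpo, the myeloperoxidase gene, was at 4080.2, 4028 and 2940.4 CPM untreated and thus far more even there than Ngp. It was at 372, 112 and 75.7 CPM with tamoxifen (log2 -4.30, SE 0.58, edgeR adjusted p = 0.00213). Elane, the neutrophil elastase gene, fell as well (log2 -1.58, SE 0.18, edgeR adjusted p = 0.000978). Whether the members' response differs from that of the primary granule genes was not tested. Among 15 granulocyte transcription factor and related genes, 3 fell and none (0) rose, again beside 17.2% of all tested genes: Klf5 (log2 -2.16), Irf8 (-1.14) and Cebpa (-0.43), which encodes the C/EBP factor that starts the granulocyte programme and missed the threshold without untreated replicate 1 or 2 or tamoxifen replicate 3 (edgeR adjusted p 0.108 to 0.138). Cebpe (log2 -0.03, edgeR adjusted p = 0.952) and Gfi1 (-0.22, edgeR adjusted p = 0.469) did not pass. In the S100 family outside the calprotectin pair, 6 of 13 genes were tested and S100a10, the annexin A2 partner, fell (log2 -1.68, SE 0.26, edgeR adjusted p = 0.00438).

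**Figure D5:**
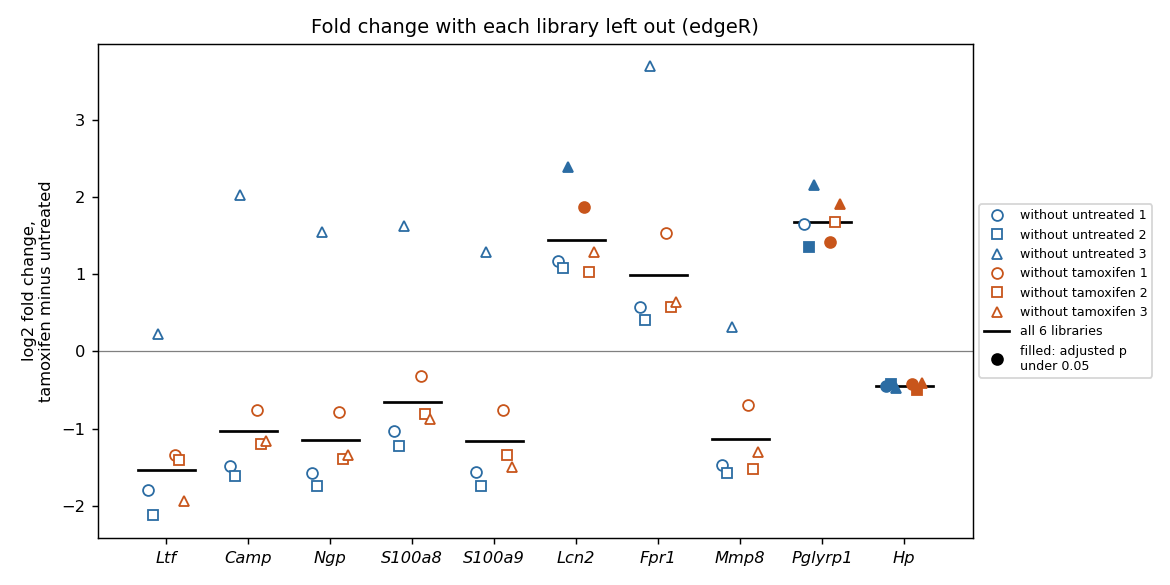
Log2 fold change (tamoxifen minus untreated) of each member with all 6 libraries (black line) and with each library left out (marks; filled where the adjusted p was under 0.05). Without untreated replicate 3 (blue triangles) Ltf, Camp, Ngp, S100a8, S100a9 and Mmp8 change sign, while Hp stays between -0.50 and -0.41 in all 6 refits.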

How the data were processed

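RNA was measured in 6 libraries, 3 per group, grouped by the sample titles. The deposited files hold whole-number counts per gene symbol, made by the authors without normalization. The submitters' processing notes name the build mm9 and the tools featureCounts, TopHat2 2.1.0, DESeq2 and FastQC, without saying which step each served; annotation, strand setting and the handling of multiply mapped reads are not given there.

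In edgeR 4.0.16 under R 4.3.3, TMM factors were computed and genes filtered with filterByExpr (minimum count 10), leaving 12729 of 24015 genes. Groups were compared with the quasi-likelihood F test, two-sided, with Benjamini-Hochberg adjustment over all tested genes and a threshold of 0.05. Standard errors were derived from the fold change and F. Log2 CPM used a prior count of 2. The test was tried on simulated counts. Alternatives were other scaling (RLE, upper quartile, none), other filters (none, or 3 libraries above 1 CPM), other tools (DESeq2 1.42.0; voom in limma 3.58.1), a required 1.5-fold change, a replicate block and leaving out each library.

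The members and gene lists were chosen with earlier results of these data known. The text names all members, up to 4 passing genes per list with the smallest p, and the 3 genes nearest each passing member; others were named after their values were seen. Exon lengths and gene order are from GENCODE M21 (GRCm38), promoter letters from RefSeq (GRCm38.p6).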

Additional observations from a re-analysis of the deposited data

How the results depend on the processing

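Pglyrp1 kept its direction in all 15 alternatives and passed in 12, and Hp passed in 14 of 15. When changes had to exceed 1.5-fold, 647 of all genes and 0 members passed. Leaving out 1 library at a time gave 1029 to 3249 genes and 1 to 3 members; the lowest gene counts came without untreated replicate 1 (1029) and untreated replicate 2 (1242), and the highest without tamoxifen replicate 1. The log2 fold changes then ran from -2.13 to 0.22 for Ltf, -1.61 to 2.02 for Camp, -1.74 to 1.55 for Ngp, -1.22 to 1.63 for S100a8, -1.75 to 1.28 for S100a9 and -1.58 to 0.32 for Mmp8, each positive only without untreated replicate 3. With limma voom, which averages log2 values, Ltf (1.29), Camp (1.64), Ngp (1.40), S100a8 (0.80) and S100a9 (0.82) were above 0 as well; none passed. Whether the replicate numbers pair the libraries is not labelled. Correlations of deviations across genes were 0.118, -0.115 and 0.106 for numbers 1 to 3. For unlike numbers they ran from -0.168 to 0.140. With 3 libraries per group these values cannot decide the question. With the number as a block, 1792 genes and 2 members passed, and Camp (0.64), Ngp (0.17) and S100a8 (0.44) were above 0 without passing. The same check was made for 40 other genes: the passing list genes, the genes nearest Pglyrp1 and Hp, and Fpr2. None (0) of these changed direction. Among their 597 values, 74 lost the call, with an adjusted p no longer under 0.05, and 6 gained it. Other genes named in the text, such as Mmp9, Stfa1 and Fn1, were not among the 40. Over the gene lists, counts moved by more than 1.5 times most often when a change over 1.5-fold was required (primary granule genes 4, other late neutrophil genes 2, granulocyte transcription factors 1), and granulocyte transcription factors gave 6 with DESeq2 and 5 without a filter. Mmp8 was not tested under the stricter filter. At 19999071 counts or more per library, depth limits mainly Ltf, Fpr1 and Mmp8.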

Other observations

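Receptors for the members' products, and relatives in their families, were described from lists as well. The counts of called genes in this section stand beside 8.96% of all tested genes that rose and 8.24% that fell. Of 11 receptor genes, 8 were tested, 4 rose and 1 fell (median log2 1.08). On the log2 scale the bacterial sensor gene Tlr2, which is also on the peptidoglycan list, rose by 1.33 (SE 0.21, edgeR adjusted p = 0.00433) and the lactoferrin receptor gene Lrp1 fell by 1.33 (SE 0.26, edgeR adjusted p = 0.0117), in both cases also with each library left out. Cd36 (log2 3.06) and the lipocalin 2 receptor gene Slc22a17 (1.47) rose, and missed the threshold in 2 and 4 of the 6 refits with a library left out. Cd163, the haptoglobin-haemoglobin receptor gene, was at 35.1 CPM in tamoxifen replicate 1 and at 4.69 to 8.28 CPM in the other libraries. The macrophage markers rose over the same libraries, from a summed 160.4 to 184 CPM untreated to 641 to 1489.7 CPM with tamoxifen. Most of that sum was Vcam1 and Emr1. Whether macrophages contributed to the rises described in this section was not tested. Of 9 tested matrix metalloproteinase and inhibitor genes, 4 rose and 1 fell (median 1.36): Timp2 (1.36) rose and Mmp19 (-0.80) fell with each library left out too, whereas Mmp12 (3.19) and Mmp2 (1.79) each lost the call in 3 of the 6 refits. Of 8 peptidoglycan sensor and lysozyme genes, 2 rose, Tlr2 and Nod2 (1.62, lost in 4 of 6 refits), and 0 fell (median 0.45). Of 9 iron and haem genes, 2 rose, the ferritin genes Ftl1 (0.55) and Fth1 (0.49), and 0 fell (median 0.13); without untreated replicate 1 or 2, 0 passed.

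Among marker lists of other cells, 1 of 8 monocyte markers rose (Csf1r, log2 0.97, lost in 4 of 6 refits) and 2 fell (Mpeg1, -1.29, and Ly6c2, -1.87, lost in 1 of 6), 1 of 6 tested T and NK cell markers rose (Il7r, lost in 3 of 6), and 1 of 8 stem and progenitor markers rose (Gata2, 1.12) and 1 fell (Flt3, -1.20). Of the B cell (2 tested), erythroid (1), megakaryocyte (1) and eosinophil, basophil and mast cell markers (4), 0 passed in edgeR, against up to 2 with 1 library left out.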
